A study of Mus musculus with 4 samples.

Results

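The clustered protocadherins are 58 genes in 3 neighbouring clusters on mouse chromosome 18, with 14 genes in Pcdha, 22 in Pcdhb and 22 in Pcdhg. CTCF binding over them was read from peak lists of chromatin immunoprecipitation and sequencing (ChIP-seq), in which DNA bound by a protein is pulled down with an antibody and sequenced. Every peak overlapping the stretch from 36.9 to 37.9 Mb of chromosome 18 (build mm10) was taken in each of 4 tissues. Peaks sharing at least 1 base were joined, and the window then held 87 of the 121759 union regions of the genome. All 4 tissues came from wild-type embryos of the B6CBAF1 strain, and 1 CTCF antibody was used throughout. The posterior trunk, dissected at E9.75 to E10 (embryonic days), comprised tailbud, presomitic mesoderm and 2 to 3 somite pairs of about 30 pooled embryos, largely without hindlimb buds. Brain was telencephalon pooled from 6 embryos at E12.5, and distal and proximal forelimb were E12.5 libraries whose titles mark them as analysed again. With 1 library per tissue, differences between tissues have no replicate check, and none was tested.

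Clustered protocadherins are cell adhesion proteins of the nervous system, and each neuron uses a small, varying choice of them. In Pcdha and Pcdhg, each gene contributes its own large first exon, called the variable exon, with its own promoter, and this exon is spliced to constant exons shared by the whole cluster. Pcdhb genes have no shared constant exons. CTCF is a zinc-finger protein that stops cohesin at chromatin loop anchors, and at this locus it is known to bring variable promoters close to distant enhancers. The last genes of Pcdha and Pcdhg, the C-type genes such as Pcdhac1 and Pcdhgc3, are known to be used more evenly between neurons than the alternate genes before them.

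Most CTCF regions of the locus were called in all 4 tissues. These were 63 of 87 regions, or 72.4%, against 42.4% of all union regions of the genome. Posterior trunk had 83 of the 87 regions, brain 73, distal forelimb 71 and proximal forelimb 68. Over all union regions the same tissues had 87.5%, 60.5%, 52.8% and 52%. Regions called in 1 tissue numbered 13 (39.6% of all union regions were of this kind), and 10 of the 13 were in posterior trunk, where 28.4% of all union regions were called alone. The 10 fell to 0 when the lists were cut to equal length. Brain alone had 2, proximal forelimb 1 and distal forelimb 0, against genome shares of 5.92%, 2.23% and 3.11%. Of the remaining regions, 3 were called in 2 tissues and 8 in 3. Libraries also differed in depth, which relative to a distal forelimb value of 1 was 1.08 in proximal forelimb, 2.02 in brain and 2.21 in posterior trunk. In pieces of tissue, CTCF at fewer cells and less CTCF per cell cannot be told apart.

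The 63 shared regions lay at the same bases in every tissue. Their summits, the positions of highest pileup, differed between tissues by a median of 20 bases and by at most 79. Shared regions were also dense here. The megabase exceeded 98.6% of the 2571 one-megabase tiles of the genome that held any region, whose median was 17 shared regions. For all regions, the 87 of this window exceeded 89.7% of tiles, with a median tile at 44.

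**Figure D1:**
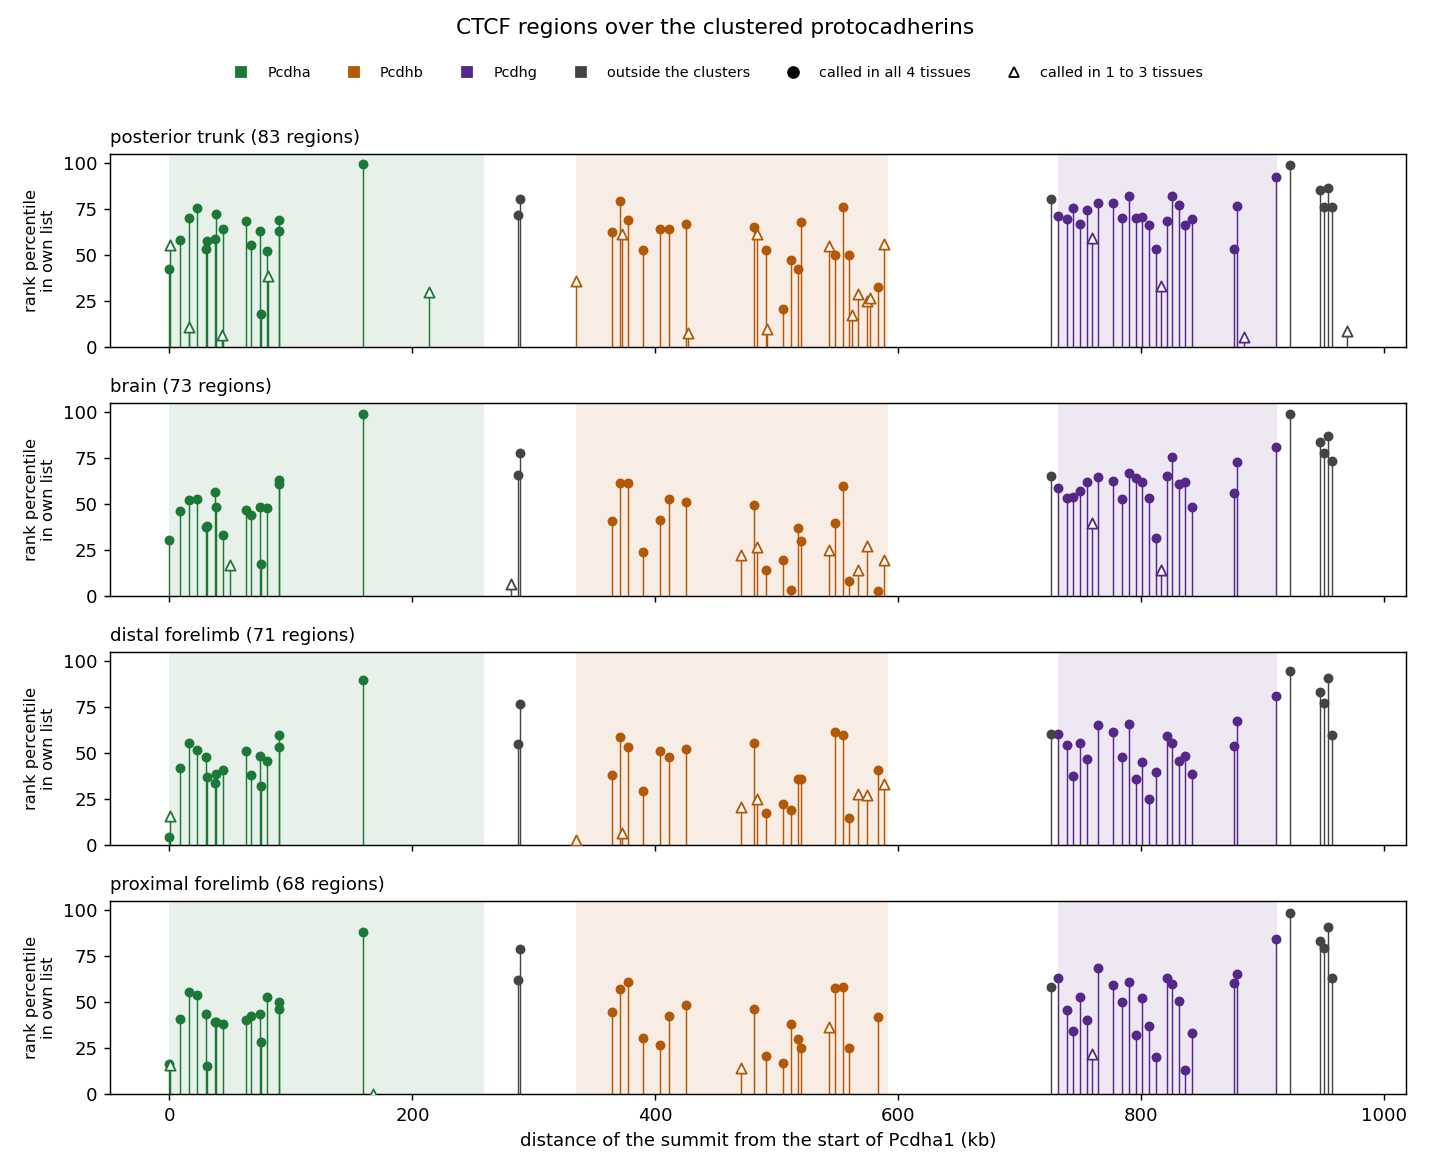
CTCF regions along the locus in the 4 tissues, with the distance of each summit from the start of Pcdha1 in kb on the x axis and the rank percentile within that tissue's own list on the y axis. Filled circles are the 63 regions called in all 4 tissues and open triangles the others. The tallest marks in every panel are at Pcdhac1 and beyond Pcdhg, and the shaded clusters are separated by stretches with few regions.

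Gene starts held most of the sites. A summit lay within 1000 bases of the start of 57 of the 58 genes in at least 1 tissue, and 47 genes, or 81.0%, had such a region called in all 4 tissues. Among 17492 protein-coding genes with a listed start on other chromosomes these shares were 40.6% and 21.2%. The 47 comprised 13 of 14 Pcdha genes, 16 of 22 Pcdhb genes and 18 of 22 Pcdhg genes. Pcdhgc5 was the gene without a start region in any tissue. Its neighbour Pcdhgc4 had 1 in posterior trunk only, at percentile 5.36 of that list, where the strongest peak stands at 100. Pcdhac2, the last gene of Pcdha, likewise had a start region in posterior trunk only, at percentile 30.2. These 3 are C-type genes, while the C-type genes Pcdhac1 and Pcdhgc3 had a start region in every tissue.

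The summits stood at a narrow distance from the start in Pcdhb and Pcdhg. For Pcdhb, the 22 regions nearest the start, 1 per gene, had a median summit at -63 bases, with negative values before the start, and a range from -202 to 20. For Pcdhg, 21 genes had a start region, and the summits of 20 lay before the start, with a median at -78.5 and a range from -325 to -42. Between -150 and 0 lay 19 of the 22 Pcdhb and 18 of the 20 Pcdhg summits. Taking the shared summit nearest to each start, 35 of 47 clustered genes, or 74.5%, were in that stretch. The same rule gave 876 of 3707 genes, or 23.6%, on other chromosomes. Pcdhga12, the last alternate gene of Pcdhg, differed from its neighbours. The remaining start region of Pcdhg, 37765753–37766111 at this gene, had its summit 340 bases inside the gene.

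**Figure D2:**
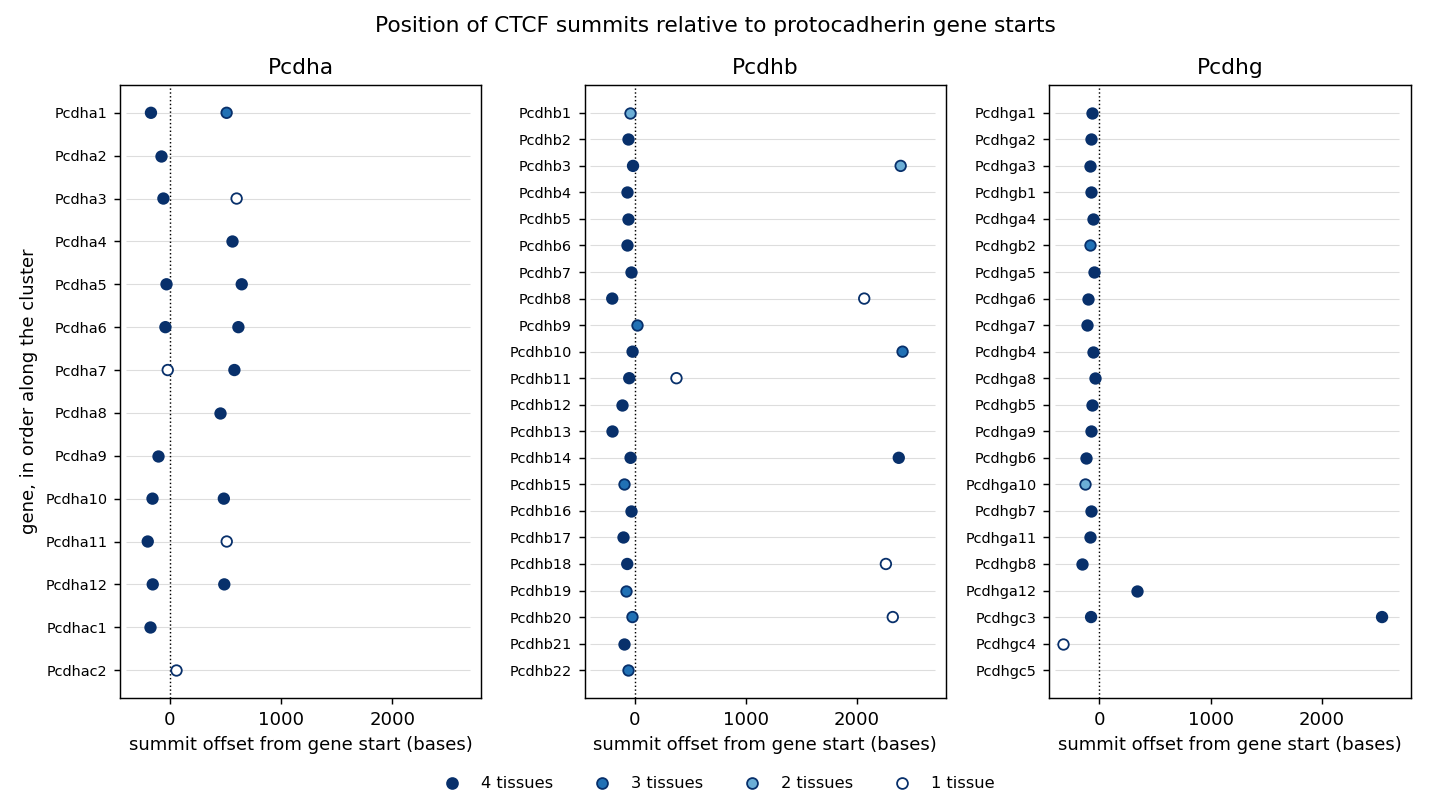
Summit positions relative to the gene start in bases (x axis) for every gene of the 3 clusters in genomic order (y axis), shaded by the number of tissues in which the region was called. Pcdhb and Pcdhg summits line up just before the start, Pcdha shows a column near -94 and another near 536 bases, and 6 Pcdhb genes have a further summit past 2000 bases.

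Pcdha genes carried sites at 2 positions. A group of 12 summits lay between -200 and 55 bases of the start, with a median of -94. Another group of 10 lay inside the gene, between 451 and 646 bases, with a median of 536.5, where the variable exon runs. The groups were split at 200 bases after the offsets had been seen. Both positions were occupied in at least 1 tissue at 8 genes, namely Pcdha1, Pcdha3, Pcdha5, Pcdha6, Pcdha7, Pcdha10, Pcdha11 and Pcdha12, with the paired summits 600 to 711 bases apart. In all 4 tissues both were called at Pcdha5, Pcdha6, Pcdha10 and Pcdha12. Pcdha2 and Pcdha9 had the outer position only, as did Pcdhac1 and Pcdhac2. Pcdha4 and Pcdha8 had the inner one only, in all 4 tissues.

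The stronger member of such a pair differed from gene to gene. At Pcdha12 the inner site had the larger fold over local background in each list. In posterior trunk, brain, distal and proximal forelimb its folds were 9.41, 8.01, 8.74 and 6.60, against 7.46, 7.56, 7.16 and 5.85 at the outer site. Pcdha10 went the other way in each list, with 8.0, 5.72, 7.02 and 5.61 outside and 2.73, 2.80, 4.49 and 3.95 inside. Pcdha6 was mixed. Its inner site was ahead in posterior trunk, at 9.84 against 6.05, and its outer site in brain, at 6.88 against 5.39, while the inner and outer folds were close in distal forelimb, at 5.44 and 4.87, and in proximal forelimb, at 5.39 and 5.34. Over the 8 pairs, the inner site had the higher −log10 p (an uncalled site counting as lower) in 5 genes in posterior trunk and 4 in distal forelimb, and in 3 each in brain and proximal forelimb.

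The inner sites of Pcdha1, Pcdha3 and Pcdha11 were the ones not called everywhere. Pcdha1, the first gene of the cluster, had 36930617–36930982 in posterior trunk at a fold of 6.30, in distal forelimb at 3.46 and in proximal forelimb at 3.52, but not in brain. Regions missing from brain only were 1.47% of all union regions. Pcdha11 had 37011233–37011527 in posterior trunk only, at 3.97, the highest fold of the 13 one-tissue regions. Pcdha3 had 36946587–36946801 in posterior trunk only, at 2.50. At Pcdha7 the outer site, 36973694–36973897, was the weak one, called in posterior trunk only at 2.3, while its inner site was called in all 4 tissues.

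Pcdhac1 had by far the strongest start region of the locus. The region 37089585–37090272, with its summit at -181, had folds of 16.6, 17.1, 17.6 and 16.4 in posterior trunk, brain, distal and proximal forelimb. It ranked at percentiles 99.4, 99.2, 89.9 and 88.0 of those lists. No other start region was above percentile 82.1 in posterior trunk or 75.5 in brain. Between Pcdha12 and Pcdhac1 lay 68.6 kb with no region in any tissue. A proximal-forelimb-only region followed Pcdhac1 at 37097526–37097735, and it was among the weakest of its list, at percentile 0.0204 with a fold of 2.32. Brain alone had 36979804–36980003 between Pcdha7 and Pcdha8, at 3.15.

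**Figure D3:**
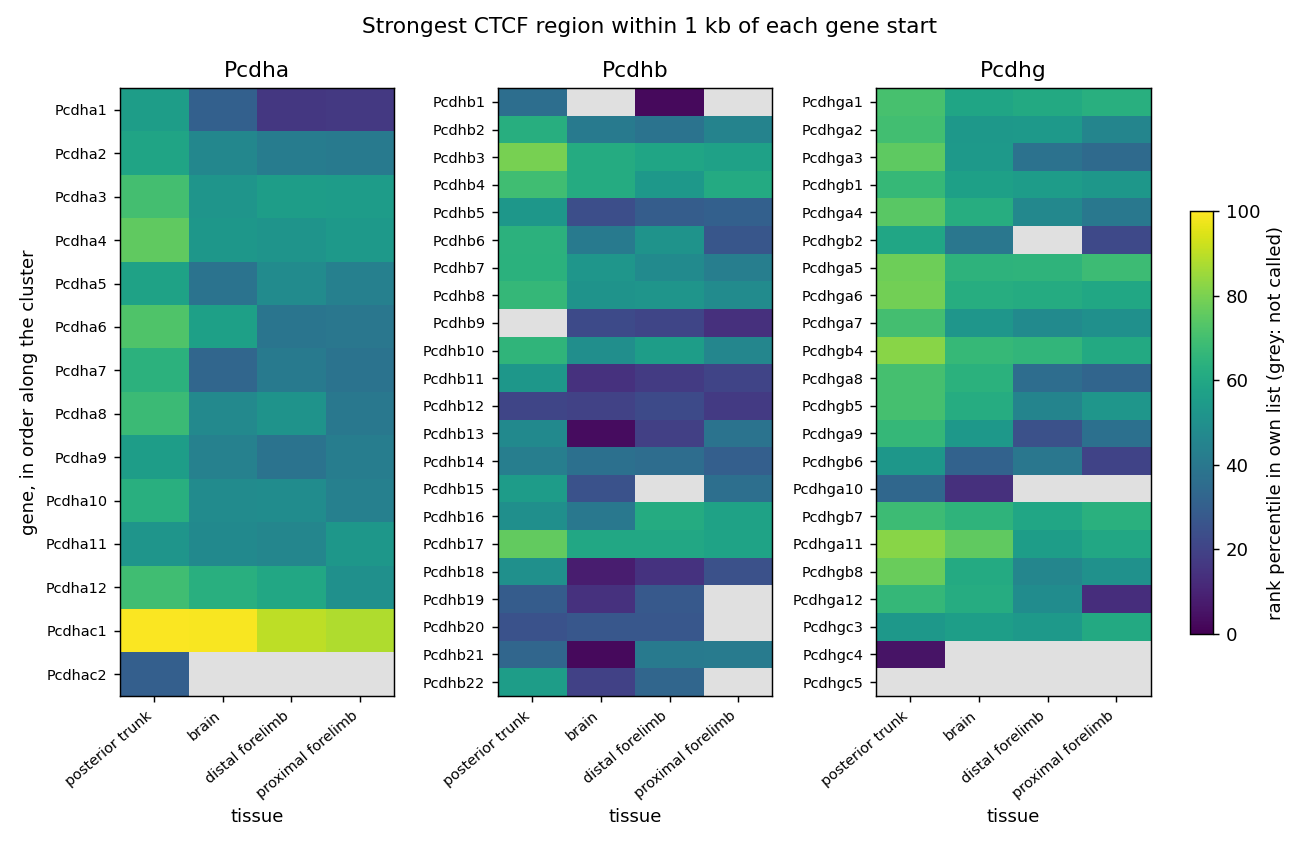
Rank percentile of the strongest CTCF region within 1 kb of each gene start, for genes in genomic order (rows) and tissues (columns), with grey where none was called. Pcdhac1 is the brightest row, and grey cells gather in Pcdhb and at the C-type genes Pcdhac2, Pcdhgc4 and Pcdhgc5.

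Pcdhb had the lowest share of regions called in all 4 tissues, 17 of 29, against 17 of 24 in Pcdha and 21 of 24 in Pcdhg. Every one of its 22 genes had a start region in at least 2 tissues. The highest by posterior trunk rank was Pcdhb3, 37300521–37301073, with folds of 12.1, 8.35, 9.94 and 8.29 in posterior trunk, brain, distal and proximal forelimb. Pcdhb17 and Pcdhb4 came next in that tissue, at percentiles 76.0 and 69.2, and Pcdhb4 had the largest fold of the cluster's starts in brain and proximal forelimb, at 9.62 and 9.80. Among the weakest was Pcdhb12, 37435355–37435827, at percentiles 20.8, 19.6, 22.6 and 16.8 in the same order. Brain held some of the lowest values. Pcdhb21 was at percentile 2.72 there and at 41.1 and 41.7 in distal and proximal forelimb, and Pcdhb13 was at 3.39 in brain and 47.5 in posterior trunk. Pileup and background were also scaled to the depth of the shallowest list, with a −log10 p of at least 5 required. Brain then had 14 of the 22 Pcdhb start regions of this setting, a share close to the 65% of all union regions that brain had under it. Posterior trunk and distal forelimb had 20 each and proximal forelimb 18, where their genome shares were 89.8%, 68.8% and 66.7%. The regions at Pcdhb11, Pcdhb13, Pcdhb18 and Pcdhb21 were missing from brain only, as were 3.09% of all union regions.

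Of the 22 Pcdhb genes, 6 had a start region that was not called everywhere. Pcdhb9 was missing from posterior trunk only, as were 0.289% of all union regions. Its region 37400681–37401025 had folds of 3.46, 4.21 and 3.75 in brain, distal and proximal forelimb. Scaled from distal forelimb, which gave the highest value and so leans high, its −log10 p in posterior trunk would have been 17.8. In brain, at a relative depth of 2.02 against 2.21 in posterior trunk, its own −log10 p was 9.80. The lowest value of the posterior trunk list was 3.00. Pcdhb15 was missing from distal forelimb only, with folds of 6.15 in posterior trunk, 3.22 in brain and 4.67 in proximal forelimb. Pcdhb19, Pcdhb20 and Pcdhb22, which lie near the end of the cluster, were missing from proximal forelimb only. Regions missing from distal and from proximal forelimb only made up 2.85% and 2.91% of all union regions. Pcdhb22 had folds of 6.26, 3.03 and 4.62 in the other tissues, in the order posterior trunk, brain and distal forelimb, and Pcdhb21 between them was called in all 4. Pcdhb1, the first gene of the cluster, was called in posterior trunk at 4.16 and in distal forelimb at 2.87.

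Another kind of Pcdhb site lay further inside the gene. At 6 genes a summit stood between 2066 and 2411 bases past the start, within the span of that gene. Pcdhb14 was the one with this site in all 4 tissues, at 37449677–37450328. Its folds were 8.80, 3.65, 4.79 and 4.03 in posterior trunk, brain, distal and proximal forelimb, against 3.94, 4.13, 4.70 and 4.25 at its own start, so the inner site was well ahead in posterior trunk alone. Pcdhb10 had the site in posterior trunk at 6.95, in brain at 3.25 and in distal forelimb at 3.86. Pcdhb3 had it in posterior trunk at 5.77 and in distal forelimb at 2.83. Scaled from posterior trunk, where it stood out, the Pcdhb3 site would have had a −log10 p of 49.1 in brain and 26.7 in proximal forelimb. It was called in neither. In distal forelimb, which also called it, its −log10 p was only 5.56. In Pcdhb20, Pcdhb18 and Pcdhb8 the site was called in posterior trunk only, at folds of 3.47, 2.81 and 2.34. Posterior trunk, the deepest library, had all 6 of these sites, distal forelimb 3, brain 2 and proximal forelimb 1. Over all union regions these tissues had 87.5%, 52.8%, 60.5% and 52%, in that order. Pcdhb11 alone had a weak additional summit at 376 bases, in posterior trunk at 2.71.

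Pcdhg had the highest share of regions called in all 4 tissues. Its 21 shared regions of 24 were 87.5%, and its start regions called in all 4 tissues had median percentiles of 70.5, 61.5, 51.2 and 51.5 in posterior trunk, brain, distal and proximal forelimb. Those of Pcdha were 63.0, 47.7, 45.7 and 42.3, and those of Pcdhb 57.8, 40.3, 44.5 and 42.1. Regions called in all 4 tissues over the whole genome had medians of 75.8, 65.0, 59.9 and 59.4, above all 3 clusters. Pcdhgb4, 37720109–37720509, had the highest lowest rank of the Pcdhg starts after Pcdhga5. Its folds were 15, 10.8, 11.8 and 10.4 in posterior trunk, brain, distal and proximal forelimb. Pcdhga5, 37694089–37694700, had 11.1, 8.48, 10.2 and 11.1.

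**Figure D4:**
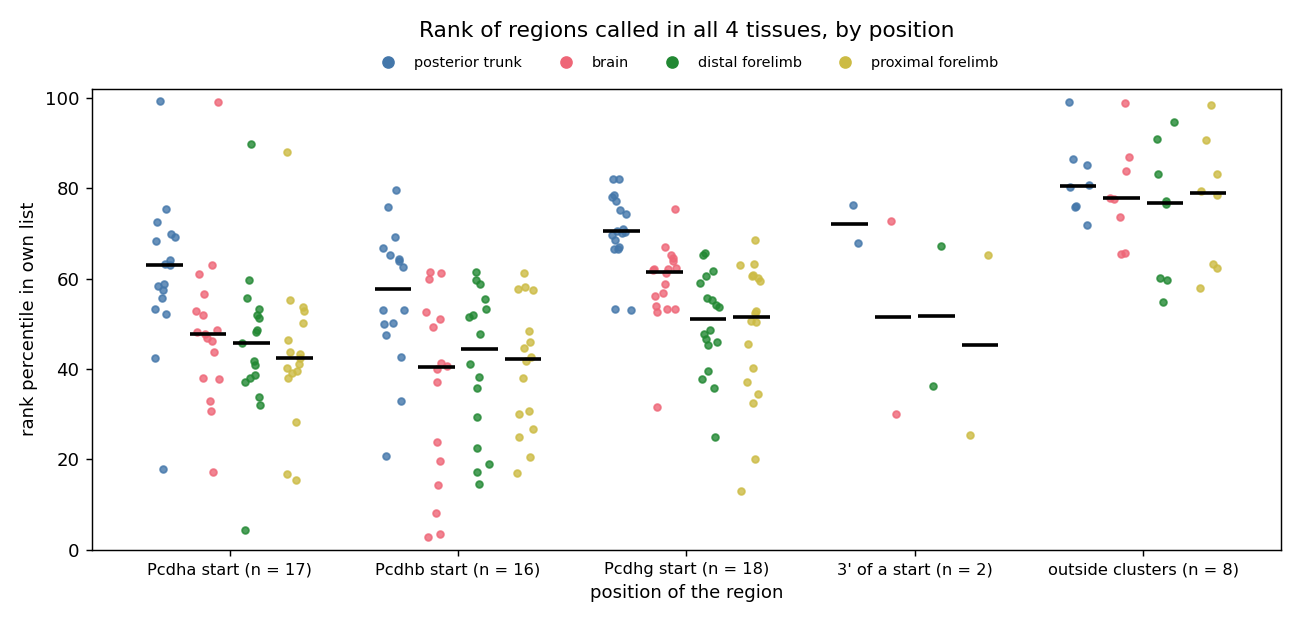
Rank percentile within each tissue's own list (y axis) for regions called in all 4 tissues, grouped by position (x axis), with 1 point per region and black bars at medians. Regions outside the clusters have medians of 80.5, 77.8, 76.9 and 79.0, while start regions of the 3 clusters have medians from 40.3 to 70.5.

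Pcdhg starts missing from some tissue were Pcdhgb2, Pcdhga10 and Pcdhgc4. Pcdhgb2, 37689609–37689966, was missing from distal forelimb only, with folds of 5.02 in posterior trunk, 3.73 in brain and 3.46 in proximal forelimb. Scaled from posterior trunk, which gave the highest value and so leans high, its −log10 p in distal forelimb would have been 21.9. In proximal forelimb, at a relative depth of 1.08 against 1 in distal forelimb, its own −log10 p was 9.79. The lowest in the distal forelimb list was 3.20. Pcdhga10, 37746764–37747035, was called in posterior trunk at 3.32 and in brain at 2.74 and in neither forelimb part. Pcdhgc4 is given above.

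Away from the starts, Pcdhg held 3 shared regions. One was 37771933–37772343, 6537 bases past the start of Pcdhga12, with folds of 10.3, 6.40, 6.04 and 5.19 in posterior trunk, brain, distal and proximal forelimb. Another was 37808699–37809187, 2544 bases past the start of Pcdhgc3, with nearly level folds of 9.97, 10.4, 9.92 and 9.46. The last was 37841028–37841741, whose summit was inside the last kilobase of the cluster, in the stretch past its last gene start, that of Pcdhgc5. It was stronger than any Pcdhg start region in brain, distal forelimb and proximal forelimb, at 14, 14.7 and 16.6, and in posterior trunk it had 13.9 and percentile 92.2.

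Regions outside the clusters were few and strong. Of 10 such regions 8 were called in all 4 tissues, with median percentiles of 80.5, 77.8, 76.9 and 79.0 in posterior trunk, brain, distal and proximal forelimb. An enhancer known to act on Pcdha lies beyond its constant exons, and those known to act on Pcdhb and Pcdhg lie beyond Pcdhg. No enhancer annotation was used here, so these regions are given by position. Between Pcdha and Pcdhb a pair of shared regions stood 28.6 and 29.5 kb past the end of Pcdha, at 37217217–37217696 and 37218141–37218674. The outer of the pair had folds of 10.8, 11.1, 12.6 and 12.1 and the inner one 8.01, 7.69, 6.62 and 7.47, in the same order of tissues. Brain alone had a further weak region there, 37211525–37211765, at 2.48.

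Between Pcdhb and Pcdhg there was 1 region, 37655382–37655976, 6.18 kb before Pcdhga1, with folds of 13.2, 9.04, 9.45 and 8.19. The 136.9 kb between it and the Pcdhb22 start region was the widest stretch of the window between neighbouring regions. That stretch holds Slc25a2, a mitochondrial ornithine carrier gene, and Taf7, a gene for a subunit of the general transcription factor TFIID. Neither had a region in its span in any tissue, and the nearest summits were 16.9 and 11.4 kb away.

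Beyond Pcdhg, 5 shared regions lay in the span of Diaph1, a gene for a formin that nucleates actin filaments. The first, 37851996–37852828, was 10.4 kb past the end of the cluster and had folds of 14.4, 15.9, 16.9 and 18.2 in posterior trunk, brain, distal and proximal forelimb. Its percentiles of 99.1, 98.9, 94.6 and 98.5 gave it the highest lowest rank of the locus, ahead of Pcdhac1. The other 4 stood close together, 35.7 to 45.3 kb past the end of the cluster. They were 37877289–37877855, 37880204–37880632, 37883411–37883953 and 37886811–37887481. The third of these ranked at 86.6, 87.1, 91.0 and 90.7, and the fourth at 75.9, 73.6, 59.8 and 63.2. Among the 63 shared regions of the window, ordered by p, the fourth held places 17, 9, 15 and 11. A last region, 37899548–37899898, was called in posterior trunk only, at a fold of 2.53.

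The order of the 63 shared regions by p was more alike between posterior trunk and brain, and between the forelimb parts, than across these pairs. Spearman's rho across regions was 0.87 for posterior trunk and brain and 0.89 for distal and proximal forelimb. It was 0.74 and 0.72 for posterior trunk with distal and proximal forelimb, and 0.79 for brain with either. The regions share their libraries and are not replicates. Library depth falls into the same pairs, and so does the mark of being analysed again, which only the forelimb libraries carry. Tissue, depth and this mark cannot be told apart here, and their parts in this were not tested. Within each of the 3 clusters, rho was highest between the forelimb parts, at 0.87 in Pcdha and 0.85 in both Pcdhb and Pcdhg. For posterior trunk with brain it was 0.721, 0.807 and 0.703 in Pcdha, Pcdhb and Pcdhg. Brain with distal forelimb gave 0.718, 0.772 and 0.656.

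**Figure D5:**
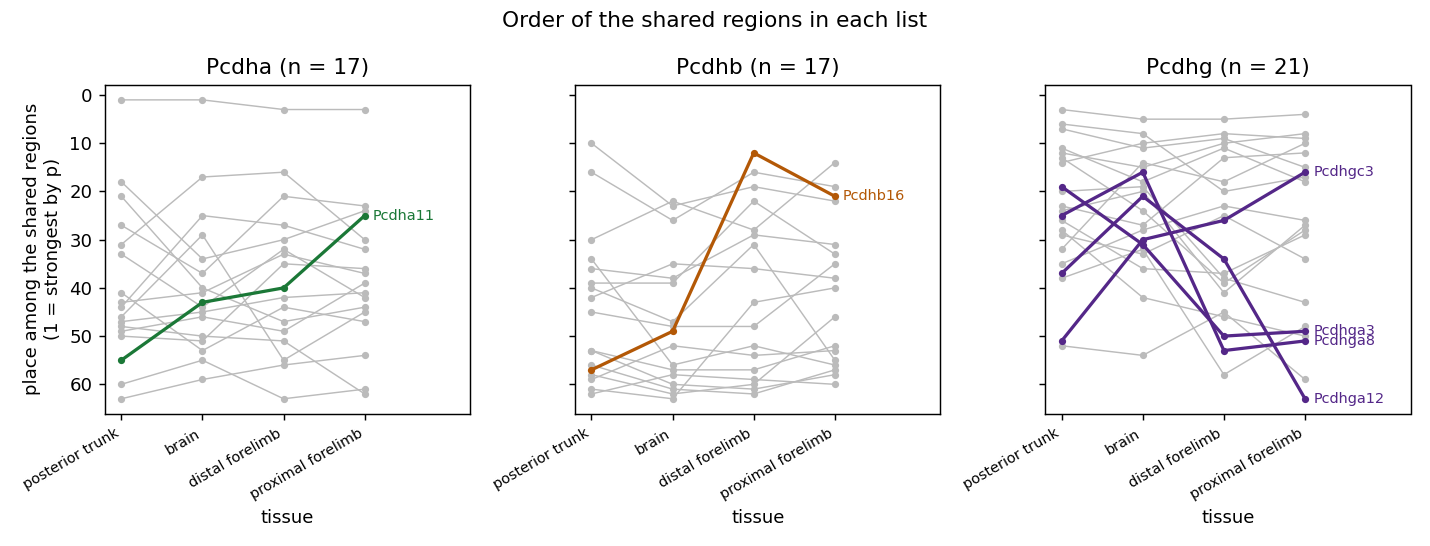
Place of each shared region among the 63 (y axis, 1 is the strongest by p) in each tissue (x axis), for the 3 clusters, with regions whose place varied by at least 30 in colour. Pcdhb16 moves up in both forelimb parts, and Pcdhga3 and Pcdhga8 move down there.

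Single genes changed place between the lists. Pcdhb16 was 57th of 63 in posterior trunk and 49th in brain, but 12th in distal and 21st in proximal forelimb. Its folds in the same order were 5.18, 4.28, 9.13 and 7.83. Pcdhga8 went the other way, from places 25 and 16 in posterior trunk and brain to 53 and 51 in distal and proximal forelimb, with folds of 9.85, 9.32, 5.44 and 4.94. Pcdhga3 was at places 19, 31, 50 and 49. Pcdhgc3 stood lowest in posterior trunk, with its start region at places 51, 30, 26 and 16. Pcdhga12 was at 37, 21 and 34 and was last in proximal forelimb, at 63. At Pcdha11 the outer site was at 55, 43, 40 and 25. Without replicates, the size of such moves between 2 libraries of 1 tissue is unknown.

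Non-clustered protocadherins, single genes such as Pcdh10 and Pcdh19 that encode related adhesion proteins, were read for context. Of 12 such genes, 4 had a region within 1000 bases of an end of their span in at least 1 tissue, and 1 of these, at Pcdh1, was called in all 4 tissues. The same rule on either end gave 58 and 51 of the 58 clustered genes, where starts alone gave 57 and 47. Inside the spans of the 12 genes, 39 of 93 regions were called in all 4 tissues, close to the 42.4% of all union regions.

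Strength goes with sharing across the genome, and the locus was read against that. Of its regions at or above percentile 50 in at least 1 list, 57 of 63 were called in all 4 tissues, or 90.5%, against 87.1% of such regions in the genome. Of those under percentile 50 in every list, 6 of 24 were shared, or 25%, against 6.55%. Regions called in more lists had more chances to reach percentile 50, so the link between strength and sharing is partly built in. The one-tissue regions were weak, with folds from 2.3 to 3.97. For regions not called in a list, the lists that called them were scaled to its depth and the highest value was kept. The scaled −log10 p was under the lowest of the list for 5 of the 16 regions absent from distal forelimb and 3 of the 19 absent from proximal forelimb, and for 0 of the 14 absent from brain and 0 of the 4 absent from posterior trunk. These values lean high, since they start from the list in which a region stood out. Protocadherin genes are close copies of one another, and nothing in the sources read here says how reads matching several of them were placed.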

How the data were processed

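Reads had passed through MACS2 2.1.1.20160309, Bowtie2 2.3.5, cutadapt 1.16 and SAMtools 1.9 on build mm10, per the submitters' processing notes. Options, input controls and read totals: not given in the sources used here. Each library has 1 peak list from the authors, holding a fold (ratio over local background), a −log10 p, a −log10 q, a score (−log10 q times 10 without its decimals), and a summit offset. The folds are the authors' values, and percentiles were computed here by ranking p inside a list, so both describe a peak among the others of its library. Rows with the same interval were merged to the strongest summit, autosomes and both sex chromosomes were kept, and peaks sharing at least 1 base were joined. Fold and p (pseudocount 1) gave back the whole pileup and the local background, with −log10 p returned to within 0.00031, and the lowest background set relative depth. The absolute depth is unknown. The scripts, tested on simulated data, returned the true value for 100% of 5000 tissue patterns and of 19967 pileups. The simulated regions stood far apart, and simulated backgrounds spanned a narrower range than those of the data. Close neighbours and the outer backgrounds were therefore not covered by this test.

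Gene spans came from RefSeq, GRCm38.p6, without strand or exons for these genes; all 3 clusters were read as plus-strand. Readthrough models joining Pcdha to Pcdhg exons were left out. Strongest summits set the class, with start regions within 1000 bases and others up to 3000 bases downstream. Starts of other genes came from the RefSeq promoter table. All genes of the clusters are accounted for. Those named are the 10 regions with the highest lowest percentile, start regions not called in all 4 tissues, regions missing from 1 tissue, the 5 one-tissue regions of highest fold, shared regions outside the clusters and genes without a start region. Other genes and regions were named after their values were seen. Members and lists were chosen with earlier results of these data known. Computation ran in Python 3.11.15 with pandas 2.3.3, scipy 1.17.1 and numpy 2.4.6, and drawing in matplotlib 3.10.9.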

Additional observations from a re-analysis of the deposited data

How the results depend on the processing

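Of 36 counts recomputed under other settings, 33 were within 1.5 times the reported one. Regions called in posterior trunk only were the exception. There were 10, against 6 where −log10 q had to reach 5, 5 after thinning to equal depth with a −log10 p of at least 5, and 0 in lists of equal length. That p threshold alone gave 11. Regions called in all 4 tissues ranged from 56 after that thinning to 63 when peaks were joined by summits within 150 bases, and genome shares moved as well, to 54.4% after thinning and 58% at equal length. Pcdhg kept a count of 21 in each setting run, while Pcdhb went from 17 to 15 with that p threshold alone and to 12 with thinning added. Leaving out posterior trunk and requiring a −log10 p of 5 in every list were chosen after seeing the data. The former gave 64 regions called in the 3 other tissues, with a genome share of 59.6%. The latter gave 60 in all 4, with a genome share of 45.7%. The planned motif search in promoter sequences was not run. No paired analysis was possible because there was a single library for every tissue. Thinning assumes that the lowest background scales with depth, which could not be checked against read totals.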
